A study of Mus musculus with 9 samples.

Results

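Wnt signalling genes were followed from mouse embryonic stem cells (ESCs) to embryoid bodies (EBs), the aggregates that ESCs form when they are released to differentiate. The 51 genes were picked by name and by their place in the pathway, by a rule that uses no measured value but was set with earlier results of these data known: 17 Wnt ligands, 12 receptors and co-receptors, 10 secreted antagonists, 2 genes of ligand secretion or agonism, 6 intracellular or transcriptional components and 4 feedback targets. Of these, 50 were measured among the 18193 genes that the array annotation paired with at least 1 probe set of their own. Tcf7, which encodes a TCF-family transcription factor, was paired with none and is not analysed here. The RNA came from 9 single-colour Affymetrix Mouse 430 2.0 arrays, 4 of ESCs (numbered 2, 6, 8 and 10 in the labels) and 5 of EBs (numbered 1, 3, 5, 7 and 9). Both groups were of the E14 line, an unmodified mouse ESC line, and the labels give both as untreated. The number of days that the EBs were cultured is not given in the sources used here. The authors describe the ESC arrays as 4 biological replicates, but it is not stated that the EBs came from separate cultures. The p-values below therefore set each difference against the spread between these samples only.

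Wnt ligands are lipid-modified secreted proteins that bind Frizzled receptors together with the co-receptors Lrp5 and Lrp6. Binding stops a destruction complex, built on Axin and Apc, from degrading beta-catenin, which then enters the nucleus and activates genes with TCF/LEF transcription factors. Among these genes are inhibitors such as Dkk1 and Axin2, which feed back on the pathway. In the early mouse embryo Wnt signals are needed to form the primitive streak and mesoderm, and in culture they help to maintain ESCs.

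All values are log2 of the deposited GCRMA intensity, and a difference is the EB mean minus the ESC mean with its standard error from limma. A gene was called when limma's Benjamini-Hochberg adjusted p, over all 45037 non-control probe sets, was under 0.05. Each gene is represented by its probe set of highest mean, and levels of different probe sets are not comparable with each other. GCRMA values have a floor near the bottom of the scale, and 49.1 to 49.9% of the probe sets on each array read under log2 4. Because each array holds a mixture of cells, fewer cells of a type and less RNA per cell cannot be told apart.

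The ESC arrays held the pluripotency markers that define their label. Of 10 pluripotency markers, 9 were called lower in EBs, among them Zfp42, with means of 11.57 in ESCs and 5.10 in EBs. Higher in EBs were 5 of 6 cardiac markers, 5 of 6 mesenchymal, 4 of 6 blood or endothelial, 3 of 6 endoderm or yolk sac and 2 of 5 streak markers, with none of these lower. Of 6 neural markers 1 was higher and 2 were lower, and of 6 trophoblast markers 1 was higher and 1 lower. Within each group, the arrays numbered 1 to 6 stood apart from those numbered 7 to 10. This split was set with earlier results of these data known, so the correlations describe it and do not test it. The correlation between EB arrays was 0.9983 to 0.9986 within the first range and 0.9966 to 0.9975 between the ranges, and between ESC arrays it was 0.9978 and 0.9976 within the ranges and 0.9953 to 0.9958 between them. The labels name no batch, so values within each range are also given for the genes where they differed most.

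By highest-mean probe sets, the largest differences between EBs and ESCs lay among receptors, secreted antagonists and the feedback target Apcdd1. A second probe set of the ligand Wnt5a rose by 3.33. Of the 50 measured genes, 16 (32%) were called, against 30.4% of all genes, a share near the background. The direction was less even: 13 genes (26%) were called higher in EBs, against 15.7% of all genes, and 3 (6%) were called lower, against 14.7%. A called difference of at least 1 was found for 10 genes (20%), against 9.51% of all genes, with 8 higher and 2 lower. For 23 genes (46%) no EB array overlapped any ESC array, against 35.0% of all genes. The median difference over the 50 genes was 0.14, and that over all genes was -0.04. The list was not tested as a set.

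**Figure D1:**
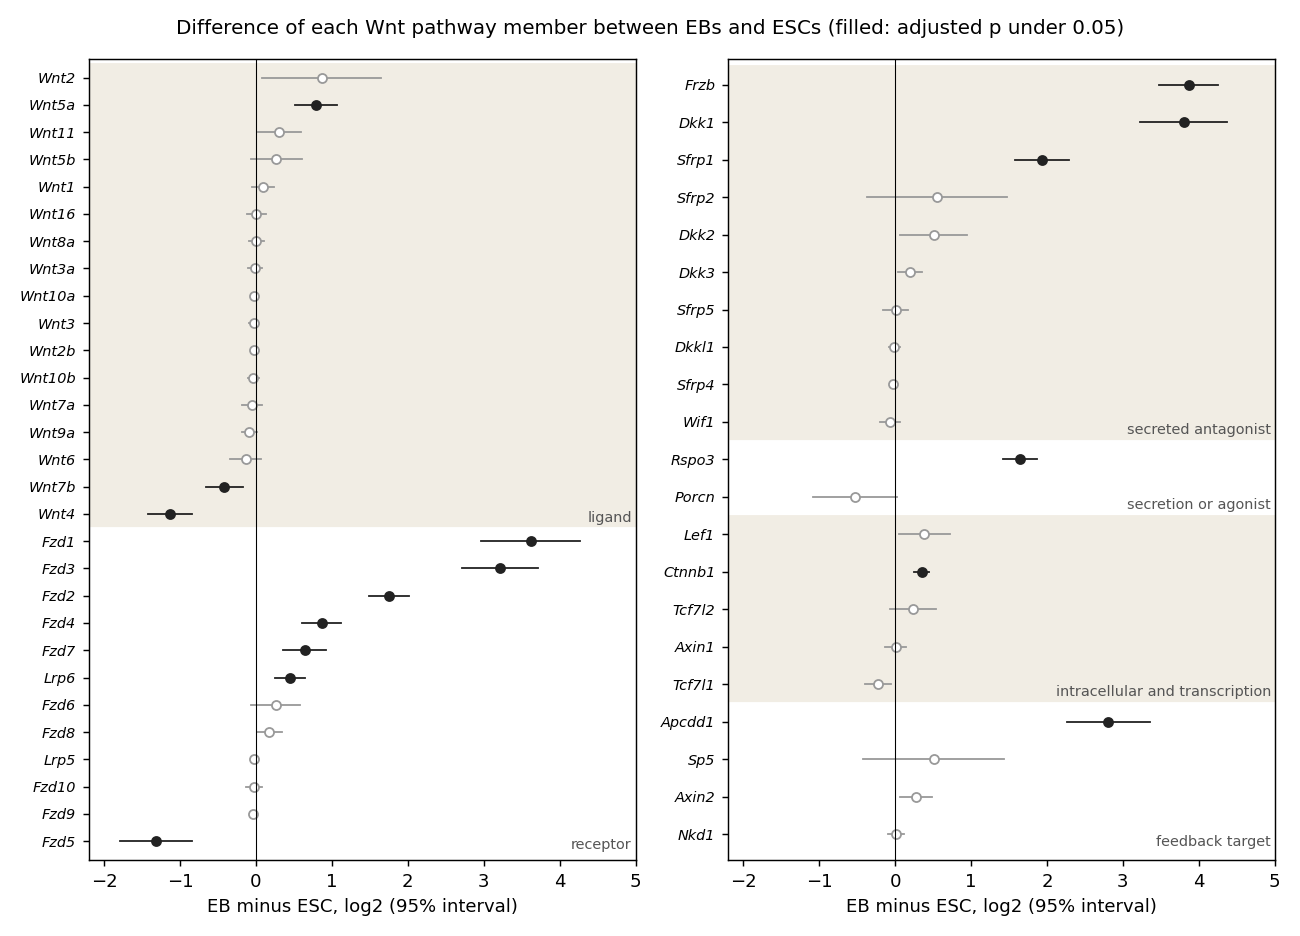
Difference in log2 GCRMA intensity (EB minus ESC, horizontal axis) of each of the 50 measured genes, ordered within its role, with 95% intervals over 5 EB and 4 ESC arrays and filled points for an adjusted p under 0.05. Fzd1 (3.62) among the receptors and Dkk1 (3.80) among the antagonists lie far to the right, as does Frzb (3.86), whose ESC readings were near the floor, and most of the 17 ligands lie close to 0.

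Among the 17 ligands, 3 were called (17.6%, against 30.4% of all genes). Wnt4, a ligand known from kidney and gonad development (probe set 1450782_at), read 7.95, 7.71, 8.19 and 7.70 on ESC arrays 2, 6, 8 and 10 and 6.92, 6.63, 6.68, 6.58 and 6.98 on EB arrays 1, 3, 5, 7 and 9. The groups did not overlap, and Wnt4 fell by 1.13 ± 0.13 (SE; n = 4 ESC and 5 EB arrays, limma adjusted p = 0.000155). Wnt5a, the main ligand of beta-catenin-independent signalling in the elongating embryo (probe set 1448818_at), had means of 7.28 ± 0.15 in ESCs and 8.07 ± 0.22 in EBs (SD). Wnt5a rose by 0.79 ± 0.12 on this probe set (adjusted p = 0.00106). A second probe set (1436791_at) rose by 3.33, from 4.54 to 7.86. Wnt7b, a ligand known from placenta and lung, was lower by a smaller margin, with a difference of -0.41 ± 0.11 (adjusted p = 0.0226). That call was lost when EB array 1, 5 or 7 was left out, with limma adjusted p of 0.0568, 0.0521 and 0.0506, and in either range of array numbers alone (0.101 and 0.105).

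The other 14 ligands did not pass the test. Wnt2, a ligand known from placental and lung development, had the largest difference among them, 0.87 ± 0.34 (adjusted p = 0.0848). It was called without EB array 9 (1.04, adjusted p = 0.0427) and is described below with the genes that differed between ranges. Wnt11 and Wnt5b, ligands of the beta-catenin-independent branch, had differences of 0.31 ± 0.12 (adjusted p = 0.0857) and 0.27 ± 0.15 (adjusted p = 0.158). With the range of array numbers as a block Wnt11 was called (0.33, adjusted p = 0.0488). Wnt3, which is required for gastrulation, gave 4.07 in ESCs and 4.04 in EBs with a difference of -0.03 ± 0.02 (adjusted p = 0.335), and Wnt3a, which drives mesoderm formation in the tail bud, gave 6.08 and 6.07 with a difference of -0.01 ± 0.04 (adjusted p = 0.806). Wnt1, Wnt2b, Wnt6, Wnt7a, Wnt8a, Wnt9a, Wnt10a, Wnt10b and Wnt16 differed by between -0.14 and 0.10. Several of these probe sets hardly moved on any array. The range over all 9 arrays was under 0.2 for Wnt2b, Wnt3, Wnt3a, Wnt8a, Wnt10a and Wnt10b, and for Fzd9, Fzd10, Lrp5, Dkkl1, Sfrp4 and Nkd1 among the other roles. These 12 genes are 24% of the members, and 28.8% of all genes had so narrow a range. Of the 12, Wnt3, Wnt3a, Wnt8a, Wnt10b, Fzd10, Dkkl1 and Nkd1 read above log2 4 on every array. Wnt8a and Nkd1 each gave the same reading on several arrays, ESC and EB alike. Whether such probe sets have a floor of their own above log2 4 was not tested. A flat reading, under log2 4 or above it, therefore does not show that a transcript was absent or unchanged.

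The receptors held the most calls: 7 of 12 (58.3%, against 30.4% of all genes), with 6 higher in EBs (50%, against 15.7%) and 1 lower. A role of so few genes was not tested as a set. Fzd1 (probe set 1437284_at), one of the Frizzled seven-pass receptors, read 5.03, 5.87, 6.22 and 5.32 on ESC arrays 2, 6, 8 and 10 and 8.84, 8.94, 8.98, 9.57 and 9.80 on EB arrays 1, 3, 5, 7 and 9. Every EB array was far above every ESC array, and the difference was 3.62 ± 0.29, a 12.3-fold rise (adjusted p = 1.87e-05). The other Fzd1 probe set differed by 0.84 ± 0.27 (adjusted p = 0.0551). Fzd3, a Frizzled known for axon guidance and planar polarity (probe set 1434788_at), read 5.81, 5.98, 5.04 and 5.01 in ESCs and 8.65, 8.45, 8.49, 8.83 and 8.93 in EBs, in the same order of arrays. Its groups were also separate, with ESC arrays 8 and 10 the lowest, and it rose by 3.21 ± 0.22, or 9.26-fold (adjusted p = 7.94e-06). The other Fzd3 probe sets differed by only -0.25 to 0.54, and with all its probe sets averaged Fzd3 rose by 0.64. Fzd2 (probe set 1418533_s_at) read 7.60, 7.73, 8.03 and 7.94 in ESCs and 9.31, 9.57, 9.54, 9.70 and 9.77 in EBs. The spread within each group was small beside the gap between them, a difference of 1.75 ± 0.12 (adjusted p = 6.39e-06).

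Fzd5 moved the other way. This receptor, needed for yolk sac and placental vessels (probe set 1455604_at), read 8.64, 8.66, 8.85 and 8.76 on the 4 ESC arrays and 7.49, 7.66, 7.91, 7.26 and 6.72 on the 5 EB arrays. All EB arrays were below all ESC arrays, with EB array 9 the lowest, and Fzd5 fell by 1.32 ± 0.21 (adjusted p = 0.0014). Fzd4, which also binds the non-Wnt ligand norrin, rose by 0.86 ± 0.11 (adjusted p = 0.000418), and Fzd7, a receptor known from ESC self-renewal, rose by 0.64 ± 0.13 (adjusted p = 0.00508). Fzd4 was not called on arrays 7 to 10 alone (difference 0.75, adjusted p = 0.0746). Fzd6, Fzd8, Fzd9 and Fzd10 did not pass the test, with differences of 0.26, 0.18, -0.03 and -0.03.

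The co-receptors gave one call. Lrp6, which pairs with Frizzled in the beta-catenin branch (probe set 1428500_at), read 7.32, 7.50, 7.36 and 7.25 in ESCs and 7.62, 7.70, 7.83, 8.0 and 7.86 in EBs. The groups were separate by a narrow margin, and Lrp6 rose by 0.45 ± 0.09 (adjusted p = 0.00495), although on arrays 1 to 6 alone the difference was 0.31 with an adjusted p of 0.12. Lrp5, its paralogue (probe set 1449299_at), read 2.88, 2.88, 2.87 and 2.89 in ESCs and 2.81, 2.87, 2.86, 2.85 and 2.87 in EBs. These readings lie near the floor in both groups and overlap, and the array gave no difference to describe (-0.02 ± 0.02, adjusted p = 0.224).

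**Figure D2:**
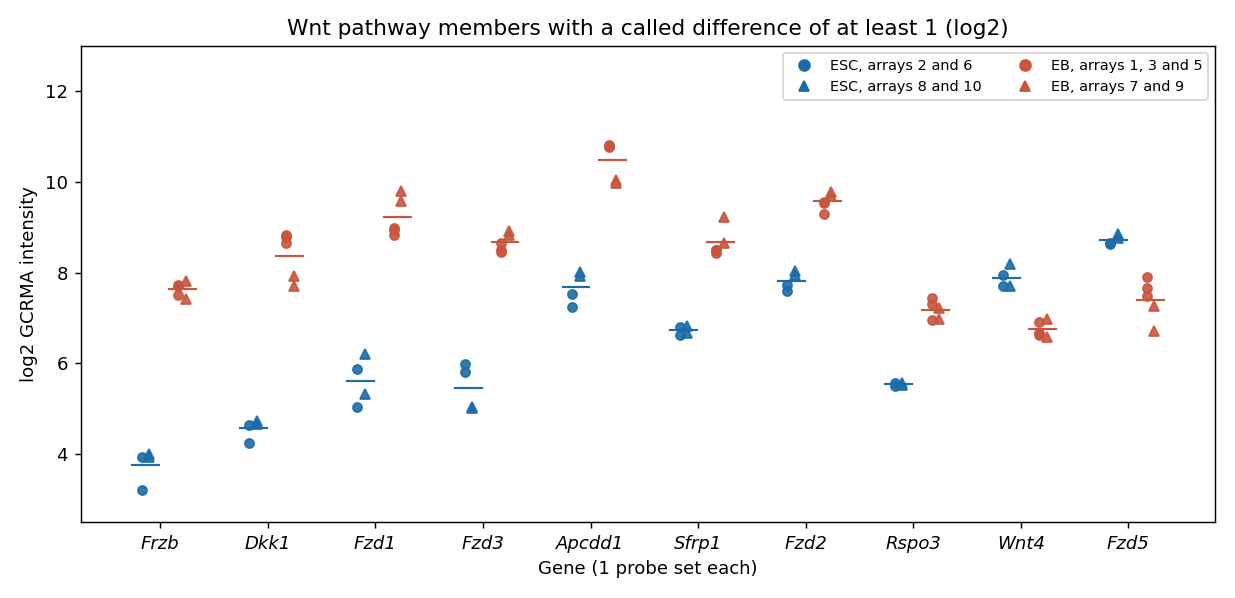
Log2 GCRMA intensity (vertical axis) on each of the 9 arrays for the 10 genes with a called difference of at least 1, with circles for arrays 1 to 6, triangles for arrays 7 to 10 and a line at each group mean. ESC and EB arrays are separate for all 10, and the 3 EB circles lie above the 2 EB triangles for Dkk1, Apcdd1 and Fzd5 and below them for Fzd1, Fzd2, Fzd3 and Sfrp1.

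Of the 10 secreted antagonists, 3 were called (30%, near the 30.4% of all genes), all higher in EBs. Frzb, a decoy that carries a Frizzled-like domain and binds Wnt outside the cell (probe set 1416658_at), read 3.95, 3.21, 3.94 and 3.99 on ESC arrays 2, 6, 8 and 10 and 7.72, 7.73, 7.51, 7.41 and 7.82 on EB arrays 1, 3, 5, 7 and 9. The ESC readings were all near the floor and the EB readings all far above it, a difference of 3.86 ± 0.17 (adjusted p = 6.58e-07) whose exact size and rank depend on how GCRMA treats low signal. Dkk1, which blocks Lrp5 and Lrp6 and is itself a target of the pathway (probe set 1420360_at), read 4.25, 4.65, 4.74 and 4.67 in ESCs and 8.66, 8.78, 8.82, 7.92 and 7.71 in EBs. The groups were separate, EB arrays 7 and 9 were below the other 3, and the difference was 3.80 ± 0.25 (13.9-fold, adjusted p = 6.39e-06). Sfrp1, another Frizzled-like decoy (probe set 1428136_at), read 6.62, 6.81, 6.68 and 6.84 in ESCs and 8.44, 8.50, 8.50, 9.23 and 8.67 in EBs. EB array 7 was the highest, no array crossed between groups, and Sfrp1 rose by 1.93 ± 0.16 (adjusted p = 2.05e-05).

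Frzb and Sfrp1 belong to the same family as Sfrp2, Sfrp4 and Sfrp5, none of which was called. Sfrp2 differed between the array ranges and is described below, while Sfrp5 differed by 0.01 ± 0.07 (adjusted p = 0.942) and Sfrp4 read under log2 4 in both groups. Dkk2, a Dickkopf that can inhibit or activate depending on context, had separate groups but a difference of 0.51 ± 0.19 that missed the threshold (adjusted p = 0.0818), with 0.84 on arrays 1 to 6 and 0.12 on arrays 7 to 10. Dkk3, a divergent Dickkopf, differed by 0.20 ± 0.07 (adjusted p = 0.0752), Dkkl1 by -0.01 ± 0.03 (adjusted p = 0.841) and Wif1, which binds Wnt ligands directly, by -0.07 ± 0.06 (adjusted p = 0.332).

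The promoters of Dkk1, Frzb, Fzd1 and Sp5 are shown because the first 3 of these genes had large rises, Sp5 differed between array ranges, and all 4 windows hold the core letters of the TCF/LEF motif. Each sequence is the 250 bases before the annotated transcription start, 5′ to 3′ on the gene's strand, from RefSeq on build GRCm38.p6. Capitals mark CTTTGA or its reverse complement TCAAAG. Dkk1 lies on the minus strand at chr19:30549497-30549746, Frzb on the minus strand at chr2:80447397-80447646, Fzd1 on the minus strand at chr5:4758217-4758466 and Sp5 on the plus strand at chr2:70474673-70474922.
Dkk1: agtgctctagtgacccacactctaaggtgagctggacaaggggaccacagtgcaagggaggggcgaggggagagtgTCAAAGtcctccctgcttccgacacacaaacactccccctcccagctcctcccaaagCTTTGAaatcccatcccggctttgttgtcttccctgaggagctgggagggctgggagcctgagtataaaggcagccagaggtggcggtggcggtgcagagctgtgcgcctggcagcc
Frzb: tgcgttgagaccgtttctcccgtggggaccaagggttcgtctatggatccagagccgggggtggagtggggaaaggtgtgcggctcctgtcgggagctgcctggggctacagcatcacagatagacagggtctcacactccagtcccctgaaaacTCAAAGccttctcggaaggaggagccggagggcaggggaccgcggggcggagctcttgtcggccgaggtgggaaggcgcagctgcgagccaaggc
Fzd1: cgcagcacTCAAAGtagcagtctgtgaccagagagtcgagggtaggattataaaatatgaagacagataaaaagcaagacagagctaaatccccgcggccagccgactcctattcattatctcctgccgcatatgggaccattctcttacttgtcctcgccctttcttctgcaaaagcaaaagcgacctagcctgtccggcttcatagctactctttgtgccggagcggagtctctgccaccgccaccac
Sp5: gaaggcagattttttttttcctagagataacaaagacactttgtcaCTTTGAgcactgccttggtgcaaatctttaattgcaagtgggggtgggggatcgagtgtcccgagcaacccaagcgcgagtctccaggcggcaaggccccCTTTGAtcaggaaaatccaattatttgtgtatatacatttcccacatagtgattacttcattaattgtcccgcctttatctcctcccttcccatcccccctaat
Counted back from the base before the start (-1), the letters begin at -174 and -117 in Dkk1, -95 in Frzb, -242 in Fzd1 and -204 and -104 in Sp5. RefSeq windows of 300 bases, from 250 before to 50 after a start, were at hand for 34 of the 51 genes (43 windows), and 7 windows (16.3%) held the letters on either strand. Of all 32851 mouse windows of that length, 5257 (16%) did, so the share among the Wnt genes was near the background. The other 3 genes with a window holding the letters were Lef1, Wnt5b and Wnt11. A match describes these letters only, and no binding was measured.

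Rspo3 and Porcn act before and beside the receptor. Rspo3, a secreted R-spondin that amplifies Wnt signals by protecting Frizzled and Lrp6 from removal (probe set 1455607_at), read 5.56, 5.50, 5.56 and 5.53 in ESCs and 7.30, 7.43, 6.97, 7.23 and 6.97 in EBs. The ESC arrays were nearly identical and all EB arrays were above them, a rise of 1.64 ± 0.10 (adjusted p = 3.87e-06). The other Rspo3 probe set read 1.81 in ESCs and 1.80 in EBs, near the floor, and was not called. Porcn, the enzyme that attaches the lipid Wnt ligands need for secretion (probe set 1424220_a_at), read 5.44, 5.45, 6.73 and 6.13 in ESCs and 5.35, 5.42, 5.44, 5.39 and 5.42 in EBs. Only ESC arrays 8 and 10 stood above the rest, and Porcn was not called over all arrays (-0.53 ± 0.24, adjusted p = 0.109).

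The intracellular components moved little. Ctnnb1, which encodes beta-catenin (probe set 1420811_a_at), read 12.94, 12.95, 12.94 and 12.84 in ESCs and 13.17, 13.27, 13.22, 13.28 and 13.38 in EBs. The groups were separate, and the small rise of 0.35 ± 0.05 was called (1.27-fold, adjusted p = 0.000427). It concerns the transcript, while the pathway acts mainly on the stability of the protein, which was not measured. Tcf7l1, the TCF factor that represses targets in ESCs (probe set 1450117_at), read 9.68, 9.82, 9.70 and 9.78 in ESCs and 9.65, 9.56, 9.65, 9.42 and 9.34 in EBs. Every EB array was below every ESC array, but the difference of -0.22 ± 0.07 missed the threshold (adjusted p = 0.0651). It was -0.13 on arrays 1 to 6 and -0.37 on arrays 7 to 10 (adjusted p = 0.036), and with the range of array numbers as a block Tcf7l1 was called (-0.24, adjusted p = 0.0255). Lef1, Tcf7l2 and Axin1 were not called, with differences of 0.39 ± 0.15, 0.24 ± 0.13 and 0.01 ± 0.06 (adjusted p = 0.0825, 0.166 and 0.913). With the range as a block Tcf7l2 was called (0.27, adjusted p = 0.0296), and without ESC array 10 Lef1 was called (0.49, adjusted p = 0.0463).

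Among the 4 feedback targets only Apcdd1 was called. Apcdd1, a membrane protein that inhibits Wnt signals at the cell surface (probe set 1454822_x_at), read 7.25, 7.52, 7.92 and 8.02 on ESC arrays 2, 6, 8 and 10 and 10.78, 10.82, 10.80, 9.98 and 10.04 on EB arrays 1, 3, 5, 7 and 9. The groups were separate and EB arrays 7 and 9 were the lowest of the EBs, a rise of 2.81 ± 0.24 (6.99-fold, adjusted p = 3.05e-05). Axin2, the scaffold most used as a readout of beta-catenin activity, differed by 0.28 ± 0.09 (adjusted p = 0.0619). It was called without EB array 7 (0.32, adjusted p = 0.0396) or EB array 9 (0.31, adjusted p = 0.040). Median centring (adjusted p = 0.0483), array weights (0.0179) and a filter at a mean of log2 4 (0.0347) also gave a call. Sp5, a zinc-finger factor induced directly by Wnt, differed by 0.51 ± 0.41 (adjusted p = 0.316), and Nkd1, which acts on Dishevelled, by 0.01 (adjusted p = 0.871).

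The range of array numbers changed some of these readings. All 16 called genes had the same sign in both ranges, and their EB and ESC arrays were separate within each. Dkk1 differed by 4.30 on arrays 1 to 6 and by 3.11 on arrays 7 to 10, and Apcdd1 by 3.41 and 2.04. For Fzd3 the order was the other way, with 2.64 and 3.86, as for Fzd5, with -0.96 and -1.81, and Fzd7, with 0.37 and 0.92. The differences between ranges were not tested. The adjusted p-values within a range rest on 5 arrays (1 to 6) or 4 arrays (7 to 10). The ranges were set with earlier results of these data known.

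The following 6 uncalled genes were chosen after their values were seen. Sfrp2, a Frizzled-like decoy, read 8.43, 8.50, 7.76 and 7.91 in ESCs and 8.07, 8.12, 8.08, 9.74 and 9.51 in EBs. On arrays 1 to 6 every EB reading was below every ESC reading (difference -0.37, adjusted p = 0.00998), and on arrays 7 to 10 every EB reading was above (1.79, adjusted p = 0.00194), so that over all arrays the value was 0.55 ± 0.41 (adjusted p = 0.275). No other member was separate in opposite directions. Sp5 read 5.91, 5.29, 7.34 and 6.65 in ESCs and 7.03, 7.33, 6.97, 6.65 and 6.05 in EBs. It was higher in EBs on arrays 1 to 6 (1.51, adjusted p = 0.00846), where the ESC arrays read lowest, and the groups met on arrays 7 to 10 (-0.64, adjusted p = 0.378).

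Lef1 and Axin2 also differed more on arrays 1 to 6 than on arrays 7 to 10, but through different arrays. From the first range to the second, the Lef1 mean went from 6.90 to 7.52 in ESCs and from 7.61 to 7.58 in EBs. The Axin2 mean went from 7.33 to 7.47 in ESCs and from 7.78 to 7.53 in EBs. Lef1 read 6.87 and 6.94 on ESC arrays 2 and 6 but 7.50 and 7.53 on ESC arrays 8 and 10, against 7.50 to 7.75 in EBs. Its difference was 0.70 on arrays 1 to 6 (adjusted p = 0.00716) and 0.07 on arrays 7 to 10. Axin2 read 7.25, 7.42, 7.44 and 7.50 in ESCs and 7.89, 7.75, 7.71, 7.50 and 7.55 in EBs, and differed by 0.45 (adjusted p = 0.0292) and 0.05. Wnt2 read 3.25 to 3.29 in ESCs and 4.46, 5.23, 4.12, 3.41 and 3.42 in EBs. Its signal was clear of the ESC readings on EB arrays 1, 3 and 5, and only slightly above them on EB arrays 7 and 9. Porcn, given above, was lower in EBs on arrays 7 to 10 alone (-1.02, adjusted p = 0.0473).

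Markers of several cell types moved with the same EB arrays. The mean over the 10 pluripotency markers was 7.34 to 7.71 on EB arrays 1, 3 and 5 and 6.86 to 7.28 on EB arrays 7 and 9, with Nanog at 7.50 to 7.82 against 6.68 and 6.34. The streak marker Mixl1 read 7.40, 7.53 and 7.14 on EB arrays 1, 3 and 5 and 5.86 on both EB arrays 7 and 9. The mean over the 5 measured streak markers was 4.70 to 4.98 on the first 3 and 4.36 to 4.38 on the other 2, with 3 of the 5 under log2 4 in both groups. The embryonic globin Hba-x read 10.80 to 10.99 on EB arrays 1, 3 and 5, and 8.85 and 9.20 on arrays 7 and 9, and the mean over 6 blood and endothelial markers was 6.79 to 6.87 against 5.97 to 6.09. The mean over 6 neural markers was higher on EB arrays 7 and 9, at 6.22 to 6.28 against 5.79 to 5.89. The means over the cardiac and the endoderm lists overlapped between these EB arrays. Among ESC arrays, the collagen Col3a1 read 3.12 and 3.65 on arrays 2 and 6 and 6.28 and 5.51 on arrays 8 and 10, and the mean over 6 mesenchymal markers was 4.59 to 5.51 across the 4. The part of these cell types in the Wnt readings was not tested.

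**Figure D3:**
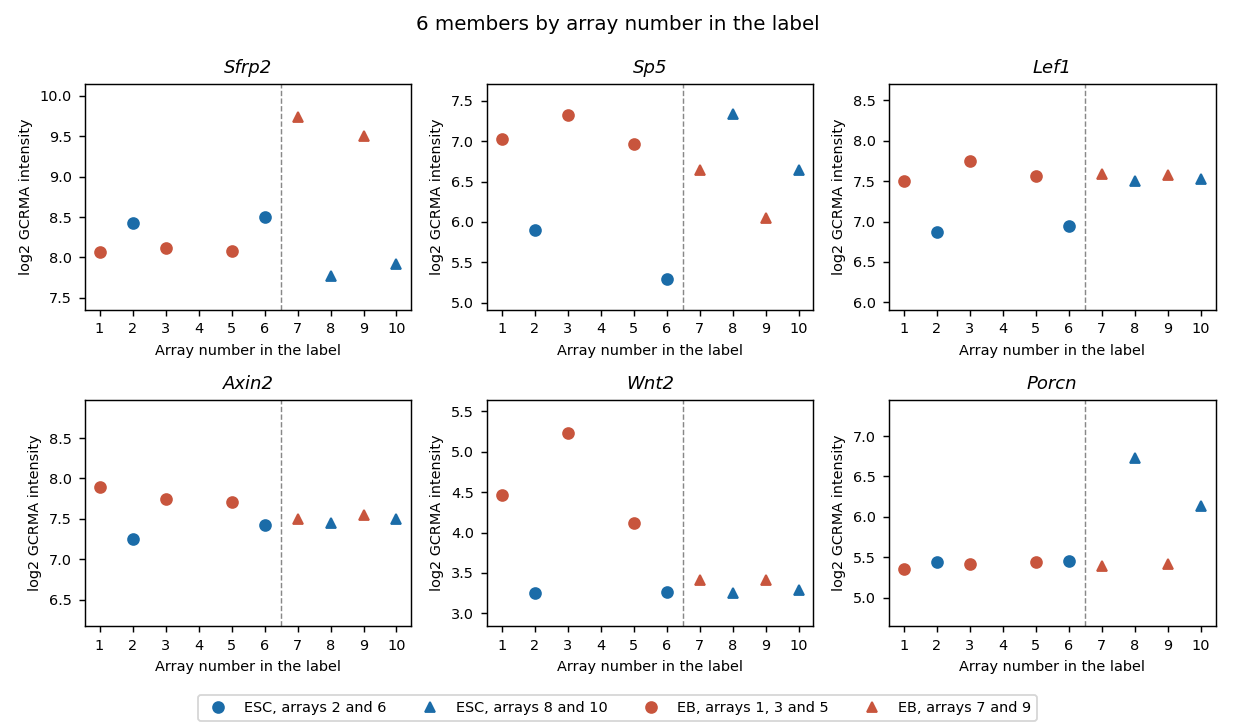
Log2 GCRMA intensity (vertical axis) against the array number in the label (horizontal axis) for 6 genes that were not called over all arrays, with circles for arrays 1 to 6, triangles for arrays 7 to 10 and a dashed line between them. Sfrp2 lies higher in EBs only on arrays 7 and 9 (9.74 and 9.51), and Sp5 and Lef1 lie lowest on ESC arrays 2 and 6.

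Probe sets of one gene did not all move alike. The 50 genes had 103 probe sets, with several for 31 genes. The 16 called genes had 32 further probe sets, of which 16 were called in the same direction, 0 in the opposite direction and 16 not at all. Of those 16 uncalled probe sets, 9 read under log2 4 in both groups. Apcdd1 rose on the 4 further probe sets that read clear of the floor, by 2.35, 3.14, 2.78 and 0.75. For Sfrp1 the called ones gave 1.94, 3.36 and 0.84. A second Wnt5a probe set (1436791_at) rose by 3.33, from 4.54 to 7.86, far more than the 0.79 of the probe set with the highest mean. Fzd1 and Fzd3 were less even. The other Fzd1 probe set differed by 0.84 ± 0.27 (adjusted p = 0.0551), and the 5 other Fzd3 probe sets by between -0.25 and 0.54, of which 2 were called. With all probe sets of a gene averaged, every one of the 16 was still called, but most values shrank: Fzd3 rose by 0.64, Frzb by 2.07, Dkk1 by 2.5, Fzd1 by 2.23, Rspo3 by 0.81, Fzd4 by 0.47 and Fzd7 by 0.32, while Fzd5 fell by 0.71 and Wnt4 fell by 0.59. Dkk3, uncalled by its brightest probe set, was called by its other one (0.95 ± 0.21, adjusted p = 0.00907), and Wnt7a was called by one near the floor (-0.07, adjusted p = 0.0318).

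**Figure D4:**
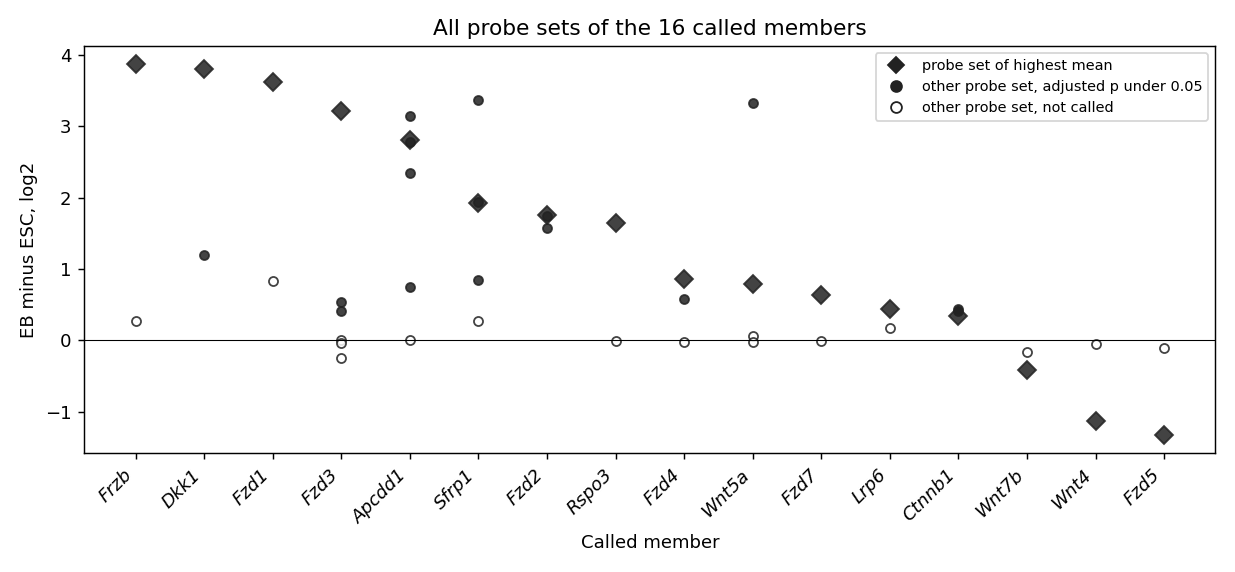
Difference in log2 GCRMA intensity (EB minus ESC, vertical axis) of every probe set of the 16 called genes, with diamonds for the probe set of highest mean, filled circles for other probe sets with an adjusted p under 0.05 and open circles for those not called. None of the 32 other probe sets was called in the opposite direction, and the 5 Fzd3 circles (-0.25 to 0.54) all lie far below its diamond (3.21).

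The rest of the pathway was described from 77 further genes listed by role, of which 75 were measured. Of these, 32 (42.7%) were called, against 30.4% of all genes, with 28 (37.3%) higher in EBs, against 15.7%, and 4 (5.33%) lower, against 14.7%. The list had a median difference of 0.11 against -0.04 over all genes. Called genes were counted in every role: 6 of 9 planar polarity genes were higher and 0 lower, 6 of 12 nuclear cofactors were higher and 2 lower, and 5 of 16 genes of Dishevelled and the destruction complex were higher and 0 lower. Of 11 receptor and receptor-turnover genes 4 were higher and 1 lower, and of 14 reported targets 5 were higher and 1 lower. Only 1 of 7 further ligand or secretion genes and 1 of 6 further antagonists were called, both higher.

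The largest rise was that of Prickle1, a core planar polarity gene, with 3.05 ± 0.13 (adjusted p = 6.12e-07). Bambi, a pseudoreceptor of the TGF-beta family that Wnt can induce, rose by 2.41 ± 0.08 (adjusted p = 1.76e-07). Wls, the carrier that takes Wnt ligands to the cell surface, read 8.44 to 9.28 in ESCs and 10.75 to 11.06 in EBs, a rise of 2.02 ± 0.17 (adjusted p = 2.24e-05). Msx2, a homeobox target, rose by 1.67 ± 0.26 (adjusted p = 0.00125), with 2.27 on arrays 1 to 6 and 0.95 (adjusted p = 0.0783) on arrays 7 to 10.

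All 4 genes that fell were read well above the floor in both groups. Ctbp2 and Tle4, transcriptional co-repressors, fell by 1.47 ± 0.08 and 1.33 ± 0.08 (adjusted p = 2.47e-06 and 3.67e-06). Other listed Ctbp and Tle genes did not fall with them. Ctbp1 rose by 0.98, Tle5 by 0.38 and Tle3 by 0.32 (adjusted p = 3.27e-05, 0.0279 and 0.00494), and Tle1 and Tle2 were not called. Tle5 lost its call under quantile normalisation (adjusted p = 0.0714), and Tle3 with its probe sets averaged (0.07, adjusted p = 0.126). Lgr4, a receptor for R-spondins, fell by 0.68 ± 0.08 (adjusted p = 0.000235), while its ligand gene Rspo3 rose. Myc, a growth regulator that is also part of the ESC programme, fell by 0.62 ± 0.12 (adjusted p = 0.00426), though on arrays 1 to 6 alone its adjusted p was 0.0786. Among the listed genes of Dishevelled and the destruction complex, those called higher were Csnk1e, Tnks, Amer1, Gsk3b and Fbxw11. They rose by 1.59, 1.18, 1.07, 1.06 and 0.39. These encode a casein kinase, a tankyrase, an Apc-binding membrane protein, the kinase that marks beta-catenin and an F-box protein of its ubiquitin ligase. With all probe sets of a gene averaged, Prickle1 rose by 0.96, Wls by 1.2, Msx2 by 0.86, Csnk1e by 0.98, Amer1 by 0.69, Gsk3b by 0.53 and Tnks by 0.20, Tle4 fell by 0.77, Lgr4 fell by 0.35, and Fbxw11 was no longer called (0.11, adjusted p = 0.102).

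**Figure D5:**
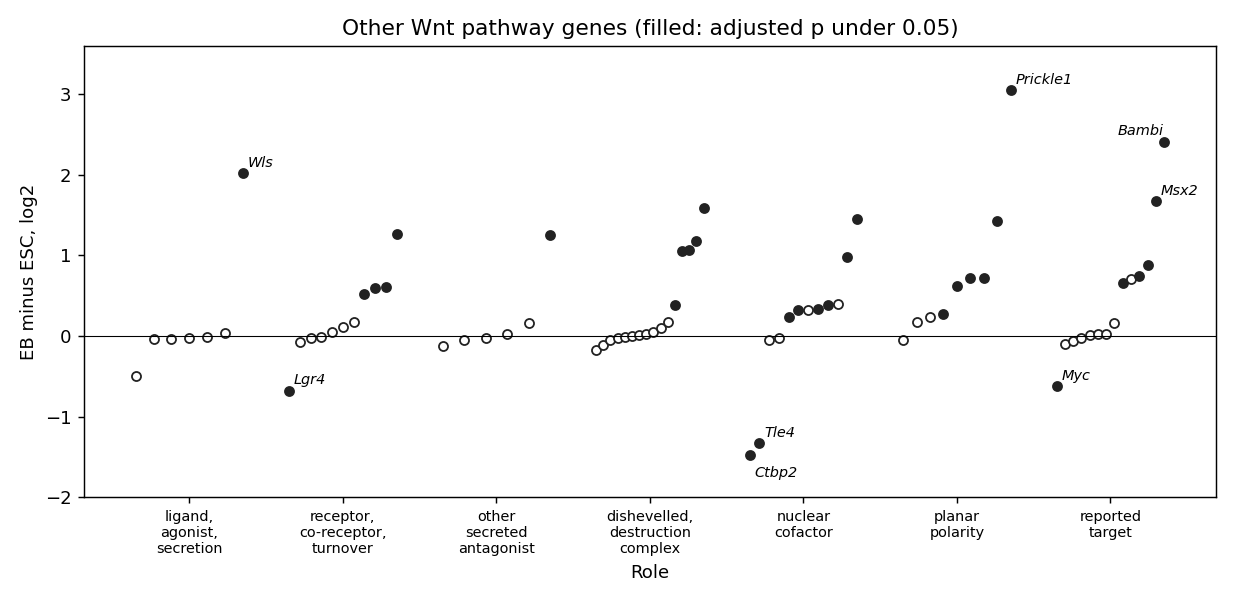
Difference in log2 GCRMA intensity (EB minus ESC, vertical axis) of the 75 measured further pathway genes, grouped by role, with filled points for an adjusted p under 0.05 and names for the 8 largest changes by the naming rule. Prickle1 (3.05) and Bambi (2.41) lie highest and Ctbp2 (-1.47) and Tle4 (-1.33) lowest.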

How the data were processed

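Total RNA of mouse E14 cells was hybridised, 1 sample per array, to 9 Affymetrix Mouse 430 2.0 arrays. The deposited values are intensities on a linear scale that the authors computed with GCRMA, which models background, normalises between arrays and summarises probes. Whether all 9 arrays were normalised together is not given in the sources used here. GCRMA compresses low readings towards a floor, and array number, not read depth, limits the precision. The log2 of each intensity was taken with no pseudocount. Of 45101 probe sets, 64 manufacturer controls were left out and 45037 were tested with limma 3.58.1 in R 4.3.3 (lmFit, eBayes with trend and robust, two-sided), with Benjamini-Hochberg adjustment over all of them. The GEO platform annotation paired 34945 tested probe sets with 1 symbol, 932 with several and 9160 with none. A gene was represented by its probe set of highest mean over the 9 arrays among those paired with it alone. Groups came from the labels. The members, the further pathway genes, the markers and the ranges of array numbers were chosen with earlier results of these data known. Array values were given for members that were called, did not overlap and differed by at least 1, and for Ctnnb1, Porcn, Tcf7l1, Lrp5 and Lrp6. Further pathway genes were named by the 4 largest rises and 4 largest falls, at most 2 each way per role, and markers by the largest differences in their list. Other genes named were chosen after their values were seen. Alternatives were array weights, median centring, quantile normalisation, eBayes without its trend and robust steps, only probe sets with the plain suffix, a filter at a mean of log2 4, averaging the probe sets of a gene, a difference of at least 1, each array left out, and the ranges of array numbers alone or as a block. Promoter sequences came from RefSeq (GRCm38.p6).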

Additional observations from a re-analysis of the deposited data

Results flagged for a closer look

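A reading far from the rest of its group was found in 14 of 100 gene-by-group sets (14%), where chance gives about 1 in 20, and 6 of the 14 lay in groups whose whole range was under 0.2. EB array 5 was the outlying array in 4 sets, with Wnt1 at 3.04, Wnt5b at 6.78, Wnt16 at 7.31 and Axin1 at 7.94. ESC array 10 was outlying in 5, with Wnt5b at 5.75, Wnt7a at 7.61, Sfrp5 at 7.07, Ctnnb1 at 12.84 and Nkd1 at 6.32. ESC array 2 was low for Wnt1 (2.64) and Dkk2 (3.23), where the other ESC arrays read 4.02 to 4.05 for Dkk2. Wnt3a was low on EB array 1 (6.04), Sfrp1 high on EB array 7 (9.23) and Frzb low on ESC array 6 (3.21). Of these genes, Frzb, Sfrp1 and Ctnnb1 were called, and all 3 stayed called without the outlying array.

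Sfrp2 differed in direction between the ranges of array numbers. The EB minus ESC difference was 1.79 on arrays 7 to 10, where both EB arrays lay above both ESC arrays, and -0.37 on arrays 1 to 6, where all EB arrays lay below the ESC arrays. The difference between the ranges was not tested.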

How the results depend on the processing

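All 16 called Wnt genes kept their direction under every alternative that measured them. All 16 stayed called under quantile normalisation, median centring, no trend or robust step and array weights. So they did with the number range as a block and the mean over probe sets. They also stayed called with a mean of at least log2 4, but Frzb (3.21 to 3.99 in ESCs) passed that filter only through its EB arrays. The filter is therefore no check on the Frzb call. With plain probe sets 15 stayed called, and Ctnnb1 had none. On arrays 1 to 6 alone 14 stayed called, without Wnt7b and Lrp6, and on arrays 7 to 10 alone 14, without Wnt7b and Fzd4, and with others gained the totals were 18 and 17. Of the uncalled genes, the block called Wnt11, Tcf7l1 and Tcf7l2. Array weights called Wnt2, Wnt2b, Wnt10a, Lef1, Tcf7l1, Tcf7l2 and Axin2. Without EB array 9 Wnt2b (-0.038, adjusted p = 0.0364) and Wnt10a (-0.028, adjusted p = 0.0452), both near the floor, were called as well as Wnt2 and Axin2. The 13 genes higher became 8 with a difference of at least 1, and leaving out each array gave 13 to 15. The 3 genes lower became 5 under quantile normalisation and 6 under array weights, and leaving out each array gave 2 to 5, with 5 without EB array 9. For the further pathway genes, the 28 higher became 12 with a difference of at least 1 and 22 to 29 leaving out each array. The 4 lower became 8 under median centring, 9 under array weights, 2 with a difference of at least 1 and 4 to 10 leaving out each array, with 10 without EB array 9. Over all genes, 5529 were called, 51.8% of them higher, against 8281 and 38.3% under array weights and 7781 and 38.1% without EB array 9. The cause was not tested. The labels do not say whether EB and ESC arrays were paired, and no paired analysis was made.

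Differences that changed sign were those of genes not called over all arrays, except 2. Arrays 7 to 10 alone gave Wnt1 -0.0037, Wnt6 0.043, Wnt8a -0.0092, Wnt16 -0.024, Sfrp5 -0.071, Nkd1 -0.045 and Sp5 -0.64, and arrays 1 to 6 alone gave Fzd10 0.0097 and Sfrp2 -0.37. Quantile normalisation gave Wnt8a -0.11, Wnt10a 0.0092, Wnt16 -0.12, Fzd9 0.0042, Lrp5 0.027, Sfrp4 0.028, Sfrp5 -0.12, Axin1 -0.060 and Nkd1 -0.097. Median centring gave Wnt3a 0.0052 and Dkkl1 0.0092, array weights gave Wnt3a 0.0021, Sfrp5 -0.025 and Axin1 -0.0045, and the mean over probe sets gave Sfrp5 -0.010. Leaving out each array gave Wnt8a -0.016 to 0.016, Wnt16 -0.033 to 0.021, Sfrp5 -0.049 to 0.032, Axin1 -0.019 to 0.051 and Nkd1 -0.014 to 0.029. The 2 exceptions, both with plain probe sets, were the further target Msx1 (-0.015) and the cardiac marker Tnnt2 (-0.038), for which a different probe set was read. The further gene Fbxw11 lost its call with the mean over probe sets (0.11, adjusted p = 0.102).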
